A study of Homo sapiens with 10 samples.

Results

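The genes described here are 9 established targets of the transcription factor NRF2: NQO1, GCLM, GCLC, TXNRD1, SRXN1, SLC7A11, HMOX1, OSGIN1 and ME1. They were chosen by symbol, with earlier results of these data known, from the 57955 genes measured in each library, and all 9 passed the filter on low counts, as did 17287 genes in all. mRNA had been sequenced in 5 melanoma lines with the BRAF V600E mutation, WM983A, WM278 and WM902B from primary tumours and WM983B and WM1617 from metastases. Each line was sequenced in its sensitive state and as the resistant line derived from it (E+BRes), which had been exposed to encorafenib, a BRAF inhibitor, together with binimetinib, a MEK inhibitor. Selection began at 1 nM and took 3 to 5 months, and the cells stayed in the final 200 nM of both drugs, so that resistance and continued presence of the drugs cannot be told apart. There was 1 library per line and state, 10 in all. WM983A and WM983B come from the same patient, as do WM278 and WM1617, so the 5 lines stand for 3 donors. The comparison asks how far the expression of this gene group differed between the resistant cells and the sensitive cells they came from.

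NRF2, encoded by NFE2L2, is held at a low level by KEAP1, an adaptor that presents it to the CUL3 and RBX1 ubiquitin ligase for degradation. Electrophiles and oxidants modify KEAP1, NRF2 then accumulates, pairs with a small MAF protein and binds the antioxidant response element near its target genes, a site that BACH1 can occupy as a repressor. The targets make and recycle glutathione, reduce thioredoxin, supply NADPH, break down haem and detoxify reactive compounds. Pigment cells are exposed to oxidants because melanin synthesis itself produces them.

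The libraries held 13693922 to 18033247 counts, with a median of 14927019, and levels of 3 counts or fewer in a library were treated as at the detection floor. The resistant WM983A library correlated more closely with the sensitive WM902B library (r = 0.813 across the genes tested) than with sensitive WM983A (r = 0.787), whereas each of the other 4 resistant libraries correlated best with its own line, with r of 0.869 to 0.976. These r values run across genes, which are not independent of each other, and describe the libraries only. The counts of genes that passed a test are therefore given with and without the resistant WM983A library. Of the defining markers of melanocytes, SOX10 was read at 4664 to 5229 normalised counts in the 5 sensitive lines, whereas PMEL was read at only 67.2 in sensitive WM278, against 6997 to 30703 in the other sensitive lines.

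The antioxidant response element has the core TGACNNNGC, and TGANTCA, the site of the AP-1 factors, can lie inside it. RefSeq promoter windows (GRCh38.p14, 250 bases before to 50 after each start) were matched for 7 of the 9 genes, with 8 windows among them, and not for SLC7A11 and HMOX1. With both strands searched, the core was found in 4 of the 8 windows, those of GCLM and ME1 and both windows of TXNRD1, and in 4687 of all 35116 windows, or 13.3%. ME1 and the first window of TXNRD1 held it at 2 places each. The AP-1 site was found in 2 of the 8 windows, those of OSGIN1 and ME1, and in 7.71% of all windows, and in ME1 it overlapped the core. The sequences are shown because the element is the letter pattern that NRF2 is known to bind, and they are 1 match per gene, that farthest before the start of the first window. Capitals mark the core, or the AP-1 site in OSGIN1, whose window held no core, and each is read 5′ to 3′ on the strand of the gene.
GCLM: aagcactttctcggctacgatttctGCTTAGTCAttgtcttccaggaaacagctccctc
TXNRD1: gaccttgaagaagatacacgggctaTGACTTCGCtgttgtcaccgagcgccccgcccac
ME1: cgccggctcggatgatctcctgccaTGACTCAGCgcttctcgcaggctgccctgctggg
OSGIN1: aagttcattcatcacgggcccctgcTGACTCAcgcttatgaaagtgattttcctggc
The GCLM stretch is chr1:93909431-93909489 on the minus strand, where the core reads on the opposite strand and begins 34 bases before the RefSeq start, and GENCODE places 26 of its bases in the first exon of a longer GCLM transcript. The TXNRD1 stretch is chr12:104215655-104215713 on the plus strand, in no annotated gene, with the core beginning 99 bases before the start. The ME1 stretch is chr6:83431155-83431213 on the minus strand, also in no annotated gene, with the core beginning 137 bases before the start. The OSGIN1 stretch is chr16:83953118-83953174 on the plus strand, within an intron of longer OSGIN1 transcripts and 97 bases before the start of this one. A match describes letters in a window and not occupancy, and no match in NQO1, GCLC or SRXN1 concerns this window only.

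All 9 genes were higher in the resistant library in 2 of the lines, WM902B and WM983A, whereas in the other 3 lines some were higher and some lower. In WM902B E+BRes, 8 of the 9 genes were at least 2-fold higher than in sensitive WM902B, where 15.4% of all genes tested were, and 7 were at least 4-fold higher, against 5.50%. In WM983A E+BRes, 5 of 9 were at least 2-fold higher (16.9% of all genes) and 3 at least 4-fold higher (5.96%). The numbers past 2-fold were 2 of 9 in WM983B (16.2% of all genes), 2 of 9 in WM278 (12.0%) and 0 of 9 in WM1617 (2.83%), and none of the 9 was 2-fold lower in any line. The median log2 ratio of the 9 genes was 2.53 for WM902B, 1.27 for WM983A, 0.37 for WM278, -0.01 for WM1617 and -0.30 for WM983B, whereas that of all genes tested lay between -0.01 and 0.03 in every line. These are ratios of 1 library to 1 library and have no replicate check.

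**Figure D1:**
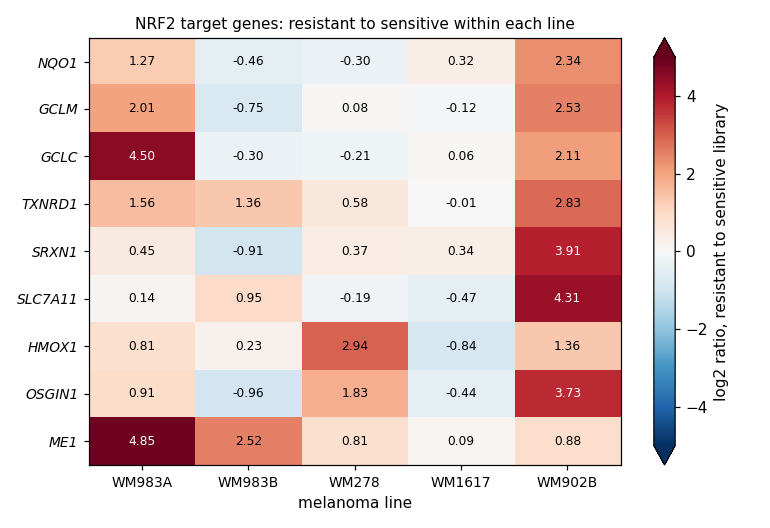
Log2 ratio of the normalised count in the resistant library to that in the sensitive library, with 1 added to each, for the 9 NRF2 target genes (rows) in 5 melanoma lines (columns, 1 library per state). Red is higher in the resistant library, and every value in the WM983A and WM902B columns is above 0, from 0.14 to 4.85 and from 0.88 to 4.31.

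WM902B and WM983A also had the largest differences in the share of the library that the 9 genes took up. Reads of the 9 genes made up 1.18% of the resistant WM902B library (95% Wilson interval 1.17 to 1.18%) and 0.191% of the sensitive one (0.189 to 0.193%). In WM983A the share was 0.636% (0.632 to 0.640%) in the resistant and 0.262% (0.259 to 0.264%) in the sensitive library. The share was 0.335% and 0.221% in resistant and sensitive WM983B, 1.52-fold higher although the median ratio of the 9 genes was below 0 there, and 0.469% and 0.372% in WM278, 1.26-fold higher. In WM1617, with the lowest shares of all, it was 0.134% (0.133 to 0.136%) and 0.129% (0.127 to 0.131%). NQO1 alone made up 0.624% of the resistant WM902B library. These intervals cover counting error only.

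Glutathione synthesis begins with glutamate-cysteine ligase, whose catalytic subunit is GCLC and whose modifier subunit is GCLM. GCLC (chromosome 6, 53497341 to 53616970) was read at 382, 544, 792, 529 and 553 normalised counts in sensitive WM983A, WM983B, WM278, WM1617 and WM902B, and at 8654, 441, 684, 551 and 2385 in the resistant lines in the same order. The sensitive lines lay within a 2.07-fold range, and only resistant WM983A and WM902B stood above all of them. GCLC was 22.6-fold higher in resistant than in sensitive WM983A (log2 ratio 4.50, exact counting interval 4.35 to 4.65) and 4.31-fold higher in resistant WM902B.

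GCLM (chromosome 1, 93885199 to 93909456) was read at 1358, 2133, 3023, 985 and 1091 normalised counts in the sensitive lines and at 5475, 1269, 3190, 909 and 6323 in the resistant lines. The groups overlapped, with 3 resistant libraries above the highest sensitive one and the other two within the sensitive range or below it. Unlike GCLC, GCLM was higher by similar factors in the 2 lines, 4.03-fold in WM983A and 5.79-fold in WM902B, so that the catalytic subunit exceeded the modifier in its ratio in WM983A (log2 4.50 against 2.01) but not in WM902B (2.11 against 2.53).

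SLC7A11 (chromosome 4, 138164097 to 138242349) encodes the cystine importer xCT, which provides the cysteine for glutathione and is also a target of ATF4. Its normalised counts were 4614, 2543, 9811, 1484 and 746 in the sensitive lines and 5085, 4924, 8609, 1070 and 14807 in the resistant lines. Sensitive WM902B held the lowest level of all 10 libraries and resistant WM902B the highest, a 19.8-fold difference, whereas in WM983A the resistant library was 1.10-fold higher. The sensitive lines alone spanned a 13.2-fold range, and resistant WM902B was the only resistant library above the highest sensitive one.

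NQO1 (chromosome 16, 69706996 to 69726668) reduces quinones by transferring both electrons at once and is the most commonly used readout of NRF2. It was read at 17366, 11775, 23332, 8449 and 19020 normalised counts in the sensitive lines and at 41918, 8570, 18907, 10537 and 96190 in the resistant lines. WM983A and WM902B were higher when resistant, by 2.41-fold and 5.06-fold, and the remaining 3 resistant lines stayed within the range of the sensitive ones. ME1 (chromosome 6, 83210402 to 83431051), the cytosolic malic enzyme, makes NADPH from malate. Its normalised counts were 64.0, 1.01, 475, 843 and 1050 in the sensitive lines and 1874, 10.5, 832, 897 and 1931 in the resistant lines. ME1 was the only one of the 9 genes higher in all 5 resistant lines (5.74% of all genes tested were), by factors from 1.06-fold in WM1617 to 28.9-fold in WM983A. In WM983B the ratio rests on 1 and 11 counts, with an exact counting interval of the log2 ratio from 0.60 to 8.81, so the gene was barely expressed there in either state.

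TXNRD1 (chromosome 12, 104215779 to 104350307) is the cytosolic thioredoxin reductase. It was read at 10843, 11262, 19589, 5056 and 5203 normalised counts in the sensitive lines and at 31960, 28835, 29342, 5006 and 37100 in the resistant lines. All resistant lines except WM1617 stood above the highest sensitive line, and within lines TXNRD1 was 2.95-fold higher in WM983A, 2.56-fold in WM983B, 1.50-fold in WM278 and 7.13-fold in WM902B, against a log2 ratio of -0.01 in WM1617. It was the only one of the 9 genes past 2-fold in 3 lines. SRXN1 (chromosome 20, 646615 to 653200), the sulfiredoxin that restores over-oxidised peroxiredoxins, was read at 2383, 2416, 1826, 1105 and 1100 normalised counts in the sensitive lines and at 3250, 1288, 2362, 1401 and 16512 in the resistant lines. Its high value was confined to resistant WM902B among the 10 libraries, 15.0-fold over the sensitive cells, and in the other lines the log2 ratio lay between -0.91 and 0.45.

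HMOX1 (chromosome 22, 35380361 to 35394214), haem oxygenase 1, opens the haem ring and releases iron and carbon monoxide, and is controlled by BACH1 as well as by NRF2. Its normalised counts were 1083, 1327, 628, 537 and 930 in the sensitive lines and 1898, 1560, 4838, 299 and 2390 in the resistant lines. Its order of lines differed from that of the other genes, with the largest ratio in WM278 (7.69-fold, log2 ratio 2.94, exact counting interval 2.83 to 3.06), where NQO1, GCLC, GCLM and SLC7A11 had log2 ratios of -0.30 to 0.08. The library of WM1617 E+BRes held the lowest level of all 10. OSGIN1 (chromosome 16, 83931311 to 83966332), an oxidative stress-induced growth inhibitor, was read at 842, 706, 741, 610 and 307 normalised counts in the sensitive lines and at 1578, 362, 2628, 450 and 4085 in the resistant lines. OSGIN1 was 13.3-fold higher in WM902B and 3.54-fold in WM278, and its log2 ratio was -0.96 in WM983B and -0.44 in WM1617, so the lines of primary origin and those from metastases lay on opposite sides of 0.

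**Figure D2:**
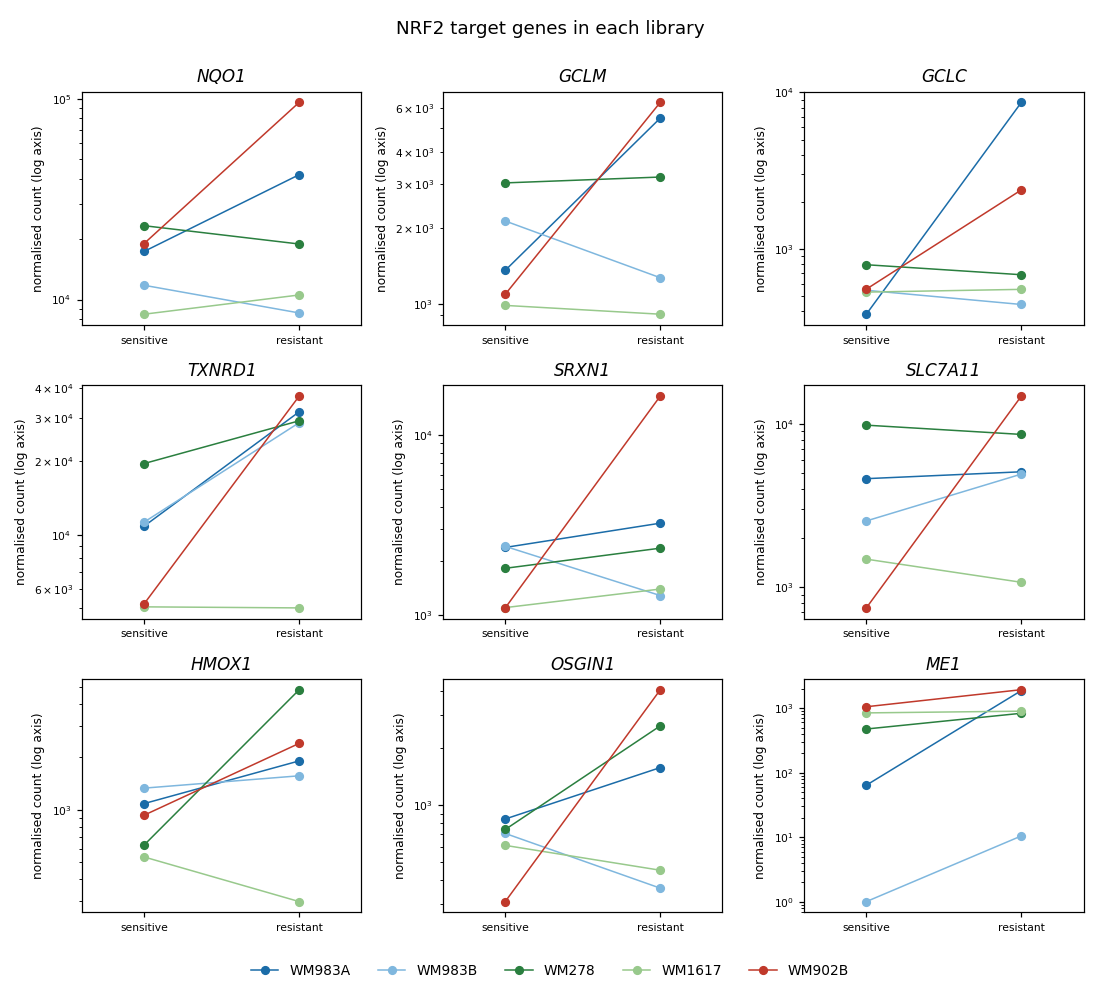
Normalised count (log axis, different in each panel) of the 9 NRF2 target genes in the sensitive and the resistant library of 5 melanoma lines, with the libraries of each line joined. The steepest lines are those of WM902B for 6 genes, of WM983A for GCLC and ME1, and of WM278 for HMOX1, whereas the log2 ratios of WM1617 lie between -0.84 and 0.34.

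In the comparison of 5 resistant with 5 sensitive libraries by edgeR's quasi-likelihood test, the 9 genes all had a positive log2 fold change, with a median of 1.29 against 0.03 for all genes tested. Of all 17287 genes, 9163 had a positive log2 fold change. GCLC (2.18 ± 0.80, SE, unadjusted p = 0.0200), OSGIN1 (1.50 ± 0.62, unadjusted p = 0.0356), TXNRD1 (1.35 ± 0.54, unadjusted p = 0.0302) and HMOX1 (1.29 ± 0.57, unadjusted p = 0.0468) passed a fold change of 2 with an unadjusted p of at most 0.05. That is 4 of 9, where 4.42% of all genes passed in either direction and 3.53% passed as higher. SRXN1 (1.49 ± 0.70, unadjusted p = 0.0587), NQO1 (1.14 ± 0.64, unadjusted p = 0.106), GCLM (1.00 ± 0.55, unadjusted p = 0.100), SLC7A11 (0.85 ± 0.75, unadjusted p = 0.286) and ME1 (1.19 ± 1.28, unadjusted p = 0.374) did not. With Benjamini-Hochberg adjustment over all genes, edgeR called 0 of the 9, and 0 of all genes (0%), the lowest adjusted p among the 9 being 0.645. DESeq2 called 5 of the 9 before adjustment, where 900 of all 17287 genes passed, and 0 after it, where 107 did. Limma voom called 0 before adjustment, where 624 of all genes passed.

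These calls rested on few libraries. With the cell line as a replicate block, which compares each resistant line with its own sensitive line, 1 of the 9 passed, TXNRD1 (log2 fold change 1.25 ± 0.43, SE, edgeR unadjusted p = 0.0236, adjusted p = 0.462), where 3.48% of all genes passed as higher, and GCLC (1.06, unadjusted p = 0.221), OSGIN1 (0.95, unadjusted p = 0.228) and HMOX1 (0.88, unadjusted p = 0.140) no longer did. Without WM983A the number that passed was 0, where 562 of all 17465 genes passed in either direction, and the log2 fold change of GCLC was 0.75. Without WM902B the number was also 0, where 420 of all 17376 genes passed. The log2 fold change of SRXN1 was then 0.11, that of SLC7A11 0.10 and that of NQO1 0.39. Without the resistant WM983A library alone, 1 passed, OSGIN1 (1.55, unadjusted p = 0.0484), where 3.31% of all genes passed as higher, and GCLC had a log2 fold change of 0.85 (unadjusted p = 0.115). Leaving out resistant WM902B alone left 1, GCLC, where 619 of all 17682 genes passed. Leaving out resistant WM1617 alone raised the number to 6. It also raised the number over all genes, from 764 of 17287 to 1579 of 17714. Without WM278, HMOX1 had a log2 fold change of 0.67.

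**Figure D3:**
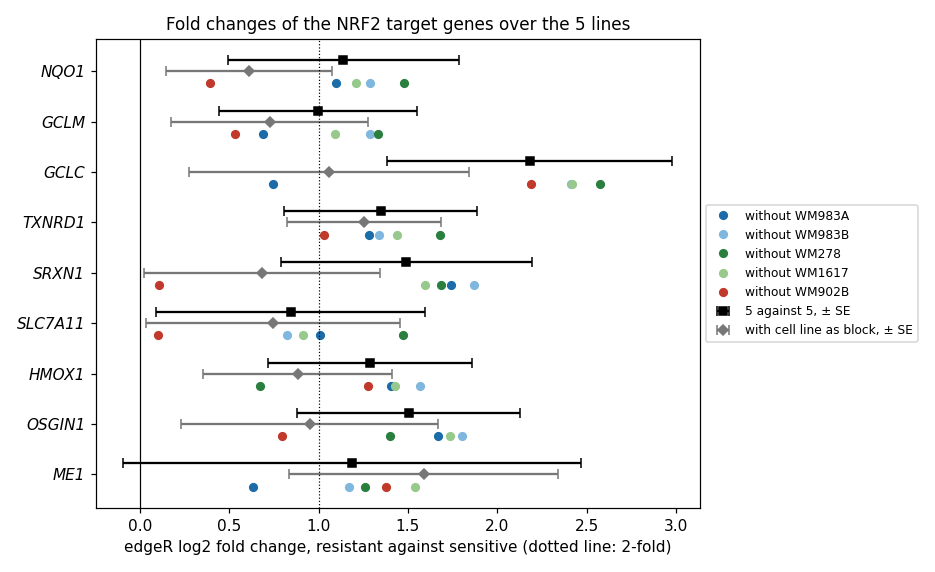
edgeR log2 fold change of the 9 NRF2 target genes over the 5 lines, with 5 resistant against 5 sensitive libraries (squares ± SE), with the cell line as a block (diamonds ± SE) and without 1 cell line at a time (coloured points, no error drawn). Leaving out WM902B moves SRXN1 and SLC7A11 to about 0.1 and leaving out WM983A moves GCLC from 2.18 to 0.75, while every TXNRD1 point stays above 1.

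The exact permutation test of log2 normalised counts, 5 against 5 and two-sided, could not go below p = 0.00794, and none of its 9 unadjusted values was under 0.05. The mean log2 level of TXNRD1 was 13.2 ± 0.83 (SD, n = 5) in the sensitive and 14.4 ± 1.20 (SD, n = 5) in the resistant lines, with an exact permutation p of 0.111, the smallest of the 9. For GCLC the means were 9.09 ± 0.37 (SD, n = 5) and 10.3 ± 1.81 (SD, n = 5), with an exact permutation p of 0.206, and the SD among resistant lines exceeded the difference of 1.23. For NQO1 they were 13.9 ± 0.59 (SD, n = 5) and 14.5 ± 1.45 (SD, n = 5), with an exact permutation p of 0.421. The exact permutation p of the other 6 lay between 0.206 and 0.452. Of the 9 genes, 4 (TXNRD1, SRXN1, HMOX1 and ME1) were higher in at least 4 of the 5 lines, as were 25.0% of all genes tested. The SD among resistant lines was larger than that among sensitive lines for 7 of the 9 genes, the exceptions being SLC7A11 (1.42 and 1.44) and ME1 (3.10 and 3.77). The same count was not made over all genes, so it cannot be taken as particular to the 9.

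Among the sensitive lines, WM278 had the highest level of 5 genes (NQO1, GCLM, GCLC, TXNRD1 and SLC7A11), and WM1617 the lowest of 4 (NQO1, GCLM, TXNRD1 and HMOX1). Sensitive WM902B, the line with the largest ratios, held the lowest level of SRXN1, SLC7A11 and OSGIN1, and its resistant library held the highest level of 7 of the 9. The 2 lines of a donor differed for some of the genes and not for others. WM983A and WM983B, from the same patient, had log2 ratios of 4.50 and -0.30 for GCLC and of 2.01 and -0.75 for GCLM, but 1.56 and 1.36 for TXNRD1. WM278 and WM1617 had 2.94 and -0.84 for HMOX1 and 1.83 and -0.44 for OSGIN1, but 0.37 and 0.34 for SRXN1 and 0.08 and -0.12 for GCLM, and neither line passed 2-fold for the other 7 genes. Over the 10 libraries the 36 pairs of the 9 genes had Pearson r of -0.04 to 0.90, with a median of 0.63 and 34 pairs above 0. The closest pair was TXNRD1 with SLC7A11 (0.90), then NQO1 with SRXN1 (0.87), and the lowest was HMOX1 with ME1. These r values describe 10 libraries that share 5 lines and carry no p.

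The regulators of NRF2 include its partners and genes that act against it, so the list has no single direction to follow. Of 13 listed, 1 was higher and 1 lower in edgeR at the same threshold, where 611 and 153 of all 17287 genes tested were. The median log2 fold change of the 13 was 0.05, and none passed adjustment. SQSTM1 and MAFF, the genes concerned, also passed without the resistant WM983A library. NFE2L2 itself was read at 2559, 2673, 2992, 1641 and 2252 normalised counts in the sensitive lines and at 1728, 2267, 3850, 2167 and 5545 in the resistant lines. Its level was thus highest in resistant WM902B (log2 ratio 1.30), and in WM983A, where GCLC and ME1 had their largest ratios, it was -0.57. KEAP1 had a log2 ratio of 1.17 in WM983A and of -0.43 to 0.29 elsewhere. CUL3 (-0.23 to 0.46) and RBX1 (-0.82 to -0.02) of the ligase, and BTRC (0.01 to 0.80), which recruits NRF2 to a different ligase, stayed within 2-fold in all 5 lines.

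SQSTM1 encodes p62, which binds KEAP1 and is itself an NRF2 target. Its normalised counts were 8381, 7642, 5671, 7493 and 5833 in the sensitive lines and 11876, 8287, 13112, 6037 and 52672 in the resistant lines. The level in resistant WM902B was 4.02-fold that of the next highest library. SQSTM1 passed the unadjusted threshold (log2 fold change 1.39 ± 0.55, SE, edgeR unadjusted p = 0.0290, adjusted p = 0.675) but not with the cell line as block (0.88, unadjusted p = 0.138). MAFF, a small MAF partner of NRF2, was the gene that passed as lower (-1.33 ± 0.56, SE, edgeR unadjusted p = 0.0393, adjusted p = 0.686), also with the block (-1.53, unadjusted p = 0.0270). It was lower in all 5 resistant lines, with log2 ratios from -4.13 in WM983A to -0.29 in WM1617, and its normalised counts were 1961 to 5512 in the sensitive and 245 to 2969 in the resistant lines, so the groups overlapped. The other small MAF genes, MAFG (-0.15 to 0.61) and MAFK (-0.06 to 1.42), did not share this direction. The repressor gene BACH1 had log2 ratios of -1.69 in WM983A and -0.28 to 0.76 elsewhere, and in WM278, where HMOX1 had its largest ratio, the value was -0.28. BACH2 was read at no more than 57.2 normalised counts. The related factors NFE2L1 (-1.36 to 0.65) and NFE2L3 (-2.48 to -0.03) had their lowest ratios in WM983A.

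Beyond the 9, 62 further genes linked to NRF2 were listed by function, and 56 of them passed the filter on low counts. Of these 56, 20 were higher and 0 lower at the unadjusted threshold of edgeR, 14 and 0 with the cell line as block, and 0 after adjustment, with a median log2 fold change of 0.69. Over all genes, 3.53% passed as higher, and 3.48% with the block, shares against which the counts of each list below are also to be read. Without the resistant WM983A library, which was left out after seeing the data, 8 of the 56 were higher and 0 lower (3.31% of all genes passed as higher), with a median of 0.49. The largest share was in detoxification and efflux, with 12 higher of 18 tested and a median of 1.88 (8 with the block). Without resistant WM983A the number was 5 of 18 (EPHX1, TRIM16, TRIM16L, ABCC1 and ABCC2), with a median of 1.32. ABCC1, an exporter of glutathione conjugates, had a log2 fold change of 1.52 ± 0.34 (SE, edgeR unadjusted p = 0.00113, adjusted p = 0.630), and 1.38 with the block (unadjusted p = 0.00437). It was 1.56 to 2.05 higher on the log2 scale in every line except WM983B (1.38) and WM1617 (-0.05). The related exporters ABCC2 (3.88) and ABCC3 (3.78) passed as well, with log2 ratios of 4.91 to 7.06 in WM983A, WM983B and WM902B, and so did the epoxide hydrolase EPHX1 (1.90), the UDP-glucose dehydrogenase UGDH (1.86), and AKR1B1 (1.16). Of these, UGDH did not pass with the block (0.72, unadjusted p = 0.339).

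The aldo-keto reductase genes AKR1B10 (7.0), AKR1C1 (4.74), AKR1C2 (6.30) and AKR1C3 (4.76) had the highest fold changes of this list, and they came mainly from resistant WM983A. AKR1B10 was read at 51579 normalised counts there and at 14.1 in sensitive WM983A, and at 6.10 to 553 in the other resistant lines. AKR1C3 was at 10019 in resistant WM983A, where the sensitive library held 2 counts (log2 ratio 11.71, exact counting interval 10.44 to 15.34). With the block, only AKR1C3 of these 4 passed (4.89, unadjusted p = 0.0380). Without resistant WM983A none of the 4 did, with log2 fold changes of 1.54 for AKR1B10, 1.30 for AKR1C1, 2.24 for AKR1C2 and 2.50 for AKR1C3. The AKR1C genes are near-identical in sequence, as are TRIM16 (2.64) and TRIM16L (3.03), and how shared reads were assigned is not given in the sources used here, so their single values are uncertain. ALDH3A1, an aldehyde dehydrogenase that did not pass and is named after its values were seen, was at 0 counts in sensitive and 39162 normalised counts in resistant WM983A, which is at least 13051-fold higher against a floor of 3 counts per library. CYP4F11, too low in most libraries to be tested, was at 429 and 993 in resistant WM983A and WM902B, and at no more than 10.5 in any sensitive line.

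NADPH is made by the pentose phosphate pathway, of which PGD (log2 fold change 1.76) and TKT (1.21) were higher, 2 of 7 genes in the NADPH list. PGD was 3.18 higher on the log2 scale in WM983A and 3.00 in WM902B. With the block PGD did not pass (1.31, unadjusted p = 0.0757), and without resistant WM983A neither PGD (1.26, edgeR unadjusted p = 0.0572) nor TKT (0.91, unadjusted p = 0.113) did. In haem and iron handling, 3 of 7 tested were higher and stayed so with the block: BLVRB (1.85), which reduces biliverdin, and the ferritin chains FTL (2.32) and FTH1 (1.05). Without resistant WM983A the ferritin chains still passed, and BLVRB (0.88) was under 2-fold. FTL and FTH1 were higher in all 5 resistant lines, FTL with a log2 ratio of 3.68 for WM902B, 3.43 for WM983A, 1.76 for WM278, 1.59 for WM983B and 0.09 for WM1617. Both ferritin genes have many processed pseudogenes that can share reads with them. Of 14 glutathione enzymes tested, 3 were higher, GGT1 (5.29), GPX3 (3.77) and GSTA4 (1.19), and the block left GPX3 and GSTA4. GGT1 was read at 1764 normalised counts in resistant WM983A and at no more than 39.8 in any other library. Without resistant WM983A, GSTA4 (1.39) passed, and GGT1 (1.10, edgeR unadjusted p = 0.0737) and GPX3 (1.63, unadjusted p = 0.126) did not. GSTM2, named for its ratio in WM902B (3.81), had the opposite sign in WM983A (-3.45). None of the 10 thioredoxin and peroxiredoxin genes passed in either direction, with a median of 0.14. Within lines, however, TXN, the thioredoxin that TXNRD1 reduces, was 4.90-fold higher in WM983A and 5.31-fold in WM902B, and had log2 ratios of -0.81 to 0.06 in the others. PRDX1, a peroxiredoxin, was 3.12-fold and 1.81-fold higher in these 2 lines, against log2 ratios of -0.79 to 0.32. Both are named after their values were seen. In WM983A, 3 of the 10 genes of this list were at least 2-fold higher and 1 lower, where 2922 and 3354 of all 17287 genes were. In WM902B, 1 was higher and 0 lower, where 2661 and 2075 of all genes were. PRDX2, also named after its values were seen, was at least 2-fold lower in 2 lines.

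**Figure D4:**
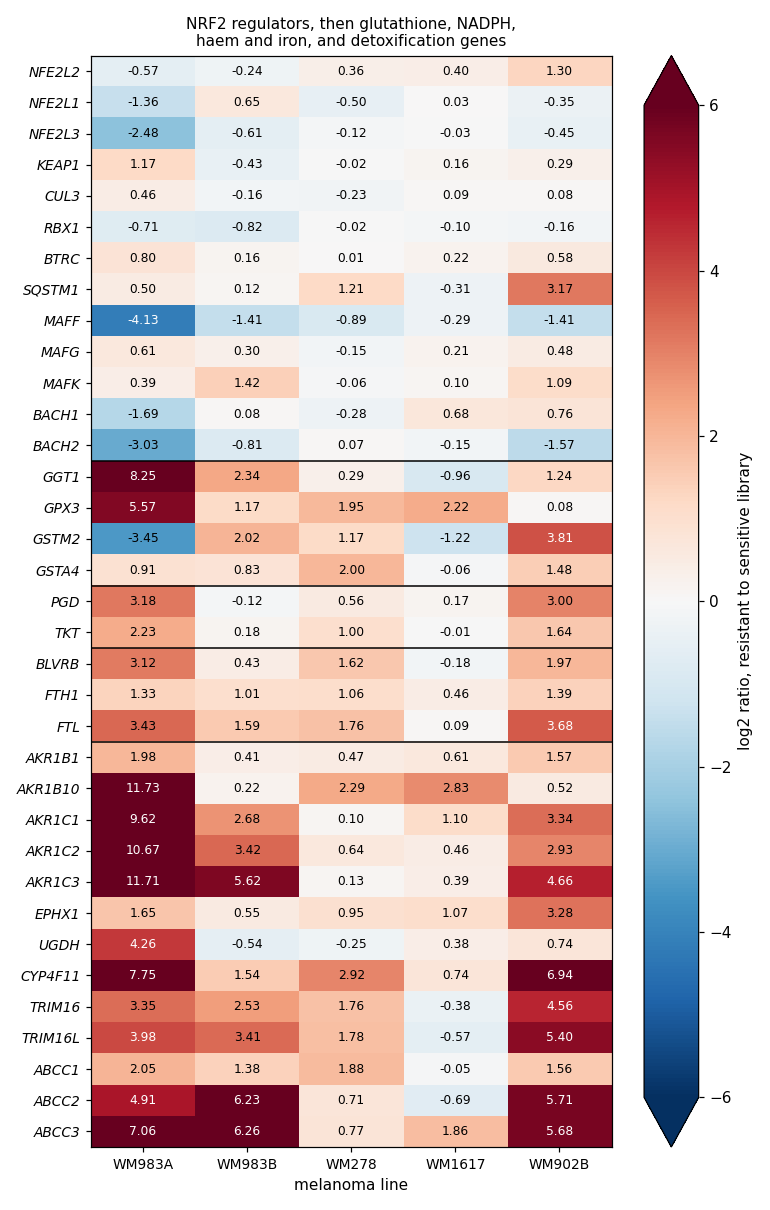
Resistant to sensitive log2 ratio of normalised counts, with 1 added to each, for the 13 NRF2 regulators and for the named genes of 4 further lists (blocks from top to bottom: regulators, glutathione, NADPH, haem and iron, detoxification and efflux) in 5 melanoma lines, with colours saturating at 6. Ratios above 6 lie in WM983A, WM983B and WM902B, WM1617 is near 0 for most genes, and values against libraries of 3 counts or fewer depend on the added 1.

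SLC7A11 is also driven by ATF4, and the 8 genes of the ATF4 list had a median log2 fold change of -0.19 with 1 higher, ATF3 (1.70), which also passed without resistant WM983A (1.74). In WM902B, where SLC7A11 was 19.8-fold higher, the median log2 ratio of that list was -0.12, and in WM983B, where SLC7A11 was 1.94-fold higher, it was 1.15 with 5 of 8 past 2-fold. The subunits of AP-1, whose site lies inside the ME1 element, were higher for 5 of 7: FOS (2.42), FOSB (2.68), FOSL2 (1.80), JUNB (1.74) and JUND (1.41). The same 5 passed without resistant WM983A. With the block JUN (1.87, unadjusted p = 0.0163) passed too. FOSL1, named after its values were seen, had the opposite sign (-1.05, edgeR unadjusted p = 0.109, and -0.96 with the block, unadjusted p = 0.0317) and was at least 2-fold lower in WM983A, WM278 and WM902B. The median ratio of the AP-1 list was 2.56 for WM983B, 2.35 for WM983A, 1.61 for WM278, 0.99 for WM902B and 0.14 for WM1617. In WM983B, where it was highest, 5 of the 9 NRF2 targets were lower than in the sensitive line. The other 4 were higher, 2 of them at least 2-fold, and the median log2 ratio of all genes tested was 0.004 there. The parts of ATF4 and of AP-1 in the levels of the 9 genes were not tested.

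Melanocyte markers were lower in resistant WM902B and WM983A, the lines in which the 9 genes differed most, but also in resistant WM983B. The summed level of the 8 markers was 53448, 30946, 6525, 68433 and 44164 normalised counts in the sensitive lines and 1365, 2137, 14068, 67335 and 3541 in the resistant lines. SOX10, a defining transcription factor of the lineage, was at 98.4, 192 and 10.1 in resistant WM983A, WM983B and WM902B. In WM983B, the line with the lowest median log2 ratio of the 9 genes (-0.30), 2 of the 9 were past 2-fold, as were 16.2% of all genes tested. Of the 8 markers, TYRP1 passed (-5.21, edgeR unadjusted p = 0.0158), also without resistant WM983A (-4.93), but not with the block (unadjusted p = 0.452), where TYR passed instead (-3.92, unadjusted p = 0.0292). In these bulk libraries, fewer cells of a type and less RNA per cell cannot be told apart. Markers of other cell types were checked alongside. The 7 fibroblast markers summed to 141 to 1220 normalised counts in the sensitive and 134 to 24161 in the resistant lines, of which COL1A1 made up 18771 and PDGFRB 4600 in resistant WM902B, while COL1A2 was at no more than 12.4 in any library and COL3A1 at no more than 284. The keratinocyte markers summed to 317 to 883 and 372 to 1323 and the leukocyte and endothelial markers to 118 to 1207 and 71.3 to 1015, with KRT10 and CD68 as their most abundant genes in every library but resistant WM983B, where TP63 (294) exceeded KRT10 (256), and PTPRC, which marks leukocytes, was at no more than 5.43. The part of these changes in the levels of the 9 genes was not tested.

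The genes whose level over the 10 libraries was most like the mean of the 9 were PGD (Pearson r = 0.95), LPAR1 (0.95), HS6ST1 (0.94), PGDP1 (0.94) and MFF (0.93), among 14090 genes compared. PGDP1 is a pseudogene of PGD, and reads can be shared between them. LPAR1, a receptor for lysophosphatidic acid, had log2 ratios of 6.03 in WM902B, 4.11 in WM983A, 1.51 in WM983B, 1.26 in WM278 and 0.48 in WM1617, so that it kept the order of the top pair of lines. MFF, which recruits the fission machinery to mitochondria, had ratios of only -0.15 to 0.67. These r values are the highest of many and rest on 10 libraries from 5 lines.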

How the data were processed

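mRNA selected with oligo-dT was sequenced from a single end for 75 cycles. The authors used HISAT2 (genome GRCh38) for alignment and StrandNGS for later analysis, and the counting tool, versions, annotation and strand setting are not given in the sources used here. The deposited raw values are expected counts, with fractions of reads (24.1% of values above 0 are whole). The deposited normalized values are log2 ratios to the sensitive library of each line, after the authors' DESeq normalization, and served only to recover 455 counts that a spreadsheet had turned into dates in 1 library.

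Expected counts were rounded, filtered with filterByExpr, normalised by TMM and compared 5 against 5 by edgeR's quasi-likelihood test, two-sided, with Benjamini-Hochberg adjustment, and by exact permutation of log2 normalised counts with 1 added. Both adjusted and unadjusted p-values were used, with a threshold of 0.05 and a fold change of at least 2. The SE given for edgeR was derived from its test, as the absolute log2 fold change divided by the square root of the F statistic. Within a state each library is a separate line, so p-values measure the spread between lines. The comparison of 5 against 5 leaves out that the libraries of a line are related, and lines of the same donor are not independent. With the block, p-values measure the spread between lines in the difference of resistant from sensitive. The pairing for the block follows from the derivation of each resistant line, and deviations from the group means correlated between the libraries of a line at 0.38 to 0.67 in 4 lines and at -0.06 in WM983A.

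The 9 genes and the lists were chosen with earlier results of these data known. The result of 1 further gene is not reported here. Named were the 9 genes, all regulators, listed genes past the unadjusted threshold or with a log2 ratio of at least 3 in size in WM902B (the line with the largest median ratio), and the 5 genes most like the mean of the 9. Alternatives were DESeq2, limma voom, the block, other filters, size factors and pseudocounts, and leaving out lines or libraries. The fits were tested on simulated data. Tools were R 4.3.3, edgeR 4.0.16, limma 3.58.1, DESeq2 1.42.0, scipy and GENCODE 44. A floor of 3 counts (0.166 to 0.219 CPM) and the intervals cover counting error only.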

Additional observations from a re-analysis of the deposited data

Results flagged for a closer look

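In the resistant libraries, the TXNRD1 level of WM1617 (5006 normalised counts) lay far below the other 4, its gap to the nearest being 0.874 of the whole range on the log2 scale, above Dixon's critical value of 0.71 for 5 samples. The ME1 level of resistant WM983B (10.5 normalised counts) was likewise apart from the other 4, with a gap of 0.836 of the range on the log2 scale, on which all groups were examined. Both were found among 18 groups of 5 examined, of which chance flags about 1 in 20.

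For GCLM and OSGIN1, all lines of primary origin had a higher level when resistant and both lines from metastases a lower one. For GCLM this split rests on small log2 ratios, 0.08 in WM278 and -0.12 in WM1617 (exact counting interval -0.25 to 0.01). How many of all genes split in this way was not counted. The mean log2 ratio of the primary lines exceeded that of the metastatic lines by 1.97 for GCLM and 2.85 for OSGIN1. This difference was not tested, and 4 of the 5 lines are pairs of a primary and a metastatic line from the same donor.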

How the results depend on the processing

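The direction of the 9 genes was positive in every fit run (29 alternatives, 28 for ME1, which was dropped where 10 counts were required in every library), but the calls were not stable. These fits reuse the same 10 libraries or part of them. Of the 9, 4 passed 2-fold at the unadjusted threshold in edgeR, 1 with the replicate block, 2 in DESeq2 with replicate block and 0 in limma voom. Of all 17287 genes, 764, 956, 1491 and 624 passed in these fits, in the same order. When a line or library was left out, 0 to 6 of the 9 passed. With the replicate block and a line left out, added after seeing the data, 0 passed without WM983A, WM983B or WM902B, 1 without WM278 and 3 without WM1617. Over all genes, 955 of 17465, 529 of 17431, 615 of 17376, 970 of 17306 and 1693 of 17424 passed, in the same order. TXNRD1 was past an unadjusted p of 0.05 in 15 of 29 alternatives, GCLC in 18 of 29 and SLC7A11 in 0 of 29. Requiring 10 counts in every library, fitting without a filter, or DESeq2 gave 5 (519 of 13699, 2258 of 38285 and 900 of 17287 over all genes). Median-ratio size factors and library totals gave 4 (755 and 782 of 17287 over all genes), and lines of primary origin only gave 6 (1025 of 17627). Within lines, a pseudocount of 10 left 1 gene past 2-fold in WM983B in place of 2, and library totals gave 3, SLC7A11 among them.

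Over all genes, edgeR called 0 after adjustment, DESeq2 107, and DESeq2 with replicate block 507. Before adjustment the number was 764, but 1491 in DESeq2 with replicate block, 2258 with no filter on low counts, and 420 to 1579 when a line or library was left out. In the exact permutation test, leaving out WM1617 brought TXNRD1 (a difference of 1.58) and HMOX1 (1.34) to p = 0.0286, the smallest that 4 against 4 allows, and over the lines left out the differences were 0.87 to 1.58 and 0.39 to 1.34.

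Among the other named genes, 5 with no call changed sign. BACH1 was 0.03, but -0.065 in edgeR and -0.066 in DESeq2 with replicate block, -0.083 in limma voom, -0.20 in lines of primary origin only, and -0.16 to 0.29 with a line or library left out. The ranges were -0.047 to 0.12 for CUL3, -0.39 to 1.60 for GSTM2, -5.92 to 0.38 for MLANA and -3.17 to 0.44 for S100B. With 1 library per line and state, p-values describe the spread between lines, and within-line ratios carry counting error only.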
